A study of Mus musculus with 33 samples.

Results

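The homeostatic lymphoid chemokines and their receptors are described here as 10 genes, Ccl19, Ccl21a, Ccr7, Cxcl13, Cxcr5, Cxcl12, Cxcr4, Ackr3, Ccr6 and Ccl20. They were chosen by gene symbol, and each matched a single row of the 56414 rows in the table, of which 36109 had reads. RNA from whole organs of tumour-free C57Bl/6 mice was sequenced without prior sorting of cells, as mRNA libraries read from both ends. The study's results speak of splenocytes and lymph node cells, whereas its methods describe tissues placed in an RNA stabiliser. Treated mice received nicotinamide (NAM, a form of vitamin B3) in drinking water at 0.5%, for 1, 3 or 14 days, and control mice were left untreated. The labels state that the NAM was renewed weekly, whereas the study's methods state that its solutions were changed several times a week. The methods describe female mice with an age range given for all experiments together, and the labels give no age or sex for these animals. The set holds 20 libraries labelled spleen, with 5 in each of the 4 groups. The other 13, labelled lymph node, divide into 3 untreated libraries, 2 after 1 day of NAM, 4 after 3 days and 4 after 14 days. The labels do not say how many nodes or animals made up a library, nor whether an animal gave both organs, so the p-values below measure the spread between these libraries.

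Values are normalised read counts, in which the reads of a gene are divided by a size factor for the library. The total of whole reads recovered per library ran from 18325061 to 54830743 for spleen-labelled samples, and from 30424968 to 46733974 for those labelled lymph node. Under the spleen label depth differed between groups. The 3 day libraries held 43632016 to 54830743 reads, above the untreated (18325061 to 31486631) and 1 day libraries (21848473 to 32066627). The 14 day libraries held 19880930 to 48338251. The part of depth in the 3 day comparisons under this label was not tested. The marker genes of the organs went against the labels in every library. Glycam1, a mucin of the high endothelial venules of lymph nodes, had 108170 to 214210 normalised counts in libraries labelled spleen, against 1.59 to 12.4 in those labelled lymph node. Spic, which red pulp macrophages of the spleen need in order to develop, had 774 to 1295 in libraries labelled spleen, against 6117 to 10491 in the others. The organs are therefore named only as labelled, and each change below is a comparison within 1 label.

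Homeostatic chemokines are made without infection by the stromal and endothelial cells of lymphoid organs, and they position lymphocytes. CCL19 and CCL21 draw naive T cells and mature dendritic cells, which carry the receptor CCR7, into the T cell zone. CXCL13, made by follicular dendritic cells and other follicular stroma, draws B cells and follicular helper T cells, which carry CXCR5, into follicles. CXCL12 holds CXCR4-bearing haematopoietic cells and plasma cells in stromal niches and also acts within germinal centres, and ACKR3 binds and removes CXCL12 without G protein signalling. CCL20 is the ligand of CCR6, a receptor of B cells, Th17 cells and innate lymphoid cells.

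Cxcr4 passed the test at every duration under the lymph node label, and Cxcl13 was the ligand that passed it under the spleen label, so the 250 bases before the RefSeq start of these 2 genes are shown. The sequences are from RefSeq on GRCm38.p6, which held entries for 8 of the 10 members, and they read 5′ to 3′ along the strand of the gene. The RefSeq start of Cxcl13, from which its positions are counted, lies downstream of the start of its row in the table, so the window ends inside that row. Capitals mark matches, on either strand, to 4 motifs, TATAAA (the TATA box), GGGCGG (the GC box), CACGTG (the E box) and the NF-kB motif, each searched without a mismatch.
Cxcr4, minus strand, chr1:128592300-128592549: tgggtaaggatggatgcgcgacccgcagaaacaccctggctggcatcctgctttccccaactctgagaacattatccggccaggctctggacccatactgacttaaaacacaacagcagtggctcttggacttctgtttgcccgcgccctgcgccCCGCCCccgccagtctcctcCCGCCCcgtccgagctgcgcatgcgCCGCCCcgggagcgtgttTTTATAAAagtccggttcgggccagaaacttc
Cxcl13, plus strand, chr5:95956689-95956938: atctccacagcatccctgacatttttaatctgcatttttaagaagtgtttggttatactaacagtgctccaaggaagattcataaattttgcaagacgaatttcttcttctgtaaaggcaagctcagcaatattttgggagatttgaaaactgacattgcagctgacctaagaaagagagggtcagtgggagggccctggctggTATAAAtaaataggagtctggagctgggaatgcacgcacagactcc
The Cxcr4 window held 3 GC boxes, which began at -95, -75 and -50 relative to the start, and a TATA box read on each strand, the 2 matches overlapping. The Cxcl13 window held a TATA box that began at -46 and no GC box. Among 32851 promoters of the same length, 12.4% held a TATA box, 32.7% a GC box, 1.21% the NF-kB motif and 6.02% the E box. A match is a description of letters and not a bound site.

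In untreated mice, some members had like levels under both labels and others had levels that stood apart. The 2 sets of libraries were scaled separately, so these levels are set side by side without a test. Ackr3 averaged 3836 ± 380 normalised counts (SD, n = 3) in lymph node-labelled libraries, and 473 ± 133 (SD, n = 5) in those labelled spleen, a ratio of 8.11. Ccl21a averaged 7300 ± 1085 (SD, n = 3) in the former and 33018 ± 8340 (SD, n = 5) in the latter, 4.52 times as much. Cxcr5 was 1.62 times higher under the lymph node label, and Ccl19 was 1.62 times higher under the spleen label. Ccr6 was 1.42 times higher under the spleen label, with untreated libraries at 1722 to 2281 and those labelled lymph node at 1333 to 1462. Cxcl12, Cxcr4, Cxcl13 and Ccr7 lay closer together, at 1.04, 1.03, 1.08 and 1.18 times the lymph node level under the spleen label. The 13 libraries labelled lymph node held 0 reads of Ccl20, where a floor of 3 reads per library corresponds to 2.31 to 3.43 normalised counts.

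**Figure D1:**
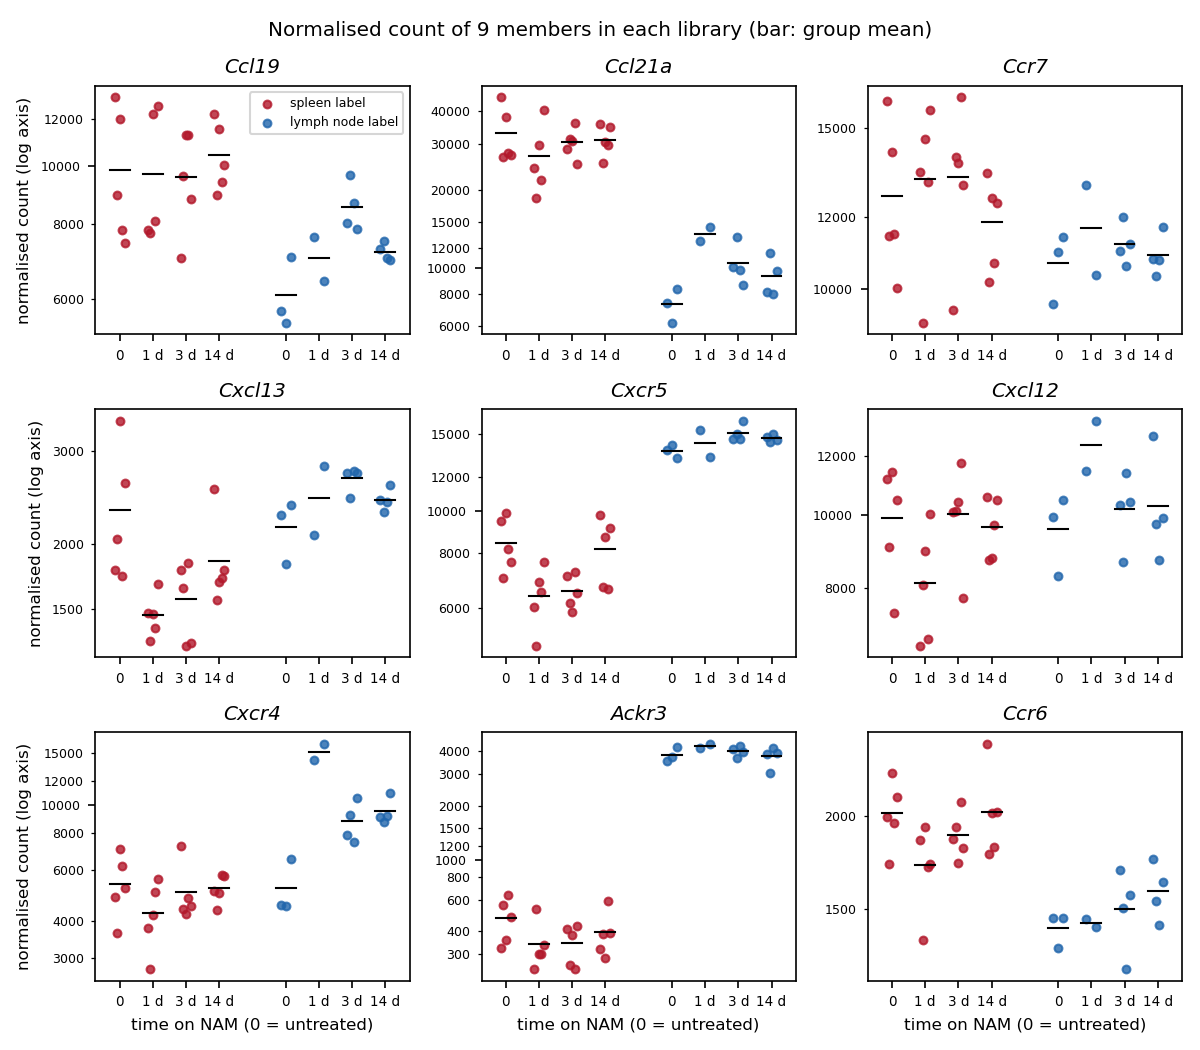
Normalised count (log axis) of 9 members in each library against time on NAM, in red under the spleen label and in blue under the lymph node label, with bars at the group means. Cxcr4 under the lymph node label lies between 4522 and 6536 in untreated libraries and between 7464 and 16136 in all NAM libraries.

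Under the lymph node label, Cxcr4 was higher at all 3 durations, Ccl21a was higher at 1 day and Ccl19 was higher at 3 days. Cxcr4 is the signalling receptor for CXCL12, and its row lies on chromosome 1 from 128588199 to 128592299 of mm10. The 3 untreated libraries held 4555, 4522 and 6536 normalised counts of Cxcr4. The 2 libraries at 1 day held 14209 and 16136, those at 3 days 7879, 9235, 7464 and 10529, and those at 14 days 9096, 8731, 9146 and 10958. All 10 NAM libraries lay above all untreated ones, and the 1 day libraries lay above every other library. Because cells were not sorted, more cells that express a gene and more RNA per cell cannot be told apart.

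The log2 fold change of Cxcr4 at 1 day was 1.56 ± 0.15 (SE), a 2.95-fold rise (95% CI 2.35 to 3.71), with an adjusted p of 7.12e-05 in limma. At 3 days it was 0.76 ± 0.13, or 1.70-fold (1.40 to 2.05), with an adjusted p of 0.00534, and at 14 days 0.88 ± 0.13, or 1.84-fold (1.52 to 2.23), with an adjusted p of 0.00376. The adjusted p at 3 days was 0.0542 without untreated replicate 2. With the level of red cell markers as a covariate, described below, the calls at 3 and 14 days were not kept (adjusted p = 0.678 and 0.202 in limma). The 14 day and 3 day levels were neighbours in order, with a log2 difference of 0.12 (95% CI -0.13 to 0.37, adjusted p = 0.932 in limma). Members called numbered 2 of 9 tested at 1 day, where 1.21% of 18215 tested rows were called and 0.884% were higher. They numbered 2 of 9 after 3 days, where 1.24% were called and 0.335% were higher, and 1 of 9 after 14 days, where 0.791% were called and 0.110% were higher. Ccl20 was not tested because its mean was under the minimum of 10 normalised counts.

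The other genes of the CXCL12 axis did not pass the test under this label. Cxcl12, the ligand, lies on chromosome 6 from 117168535 to 117181368. It held 9960, 8278 and 10484 normalised counts in untreated libraries and 11476 and 13412 at 1 day, so that both 1 day libraries lay above the untreated range. The log2 fold change was 0.38 ± 0.14 (SE), with an adjusted p of 0.212 in limma. At 3 and 14 days Cxcl12 ranged from 8654 to 11399 and from 8710 to 12793, and both ranges overlapped the untreated one. Ackr3, the scavenging receptor on chromosome 1 from 90203980 to 90216288, stayed within 3028 to 4418 over the 13 libraries. Its log2 fold changes were 0.17, 0.070 and -0.035 at 1, 3 and 14 days, each with a 95% CI that spanned 0.

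Ccl21a encodes the serine form of CCL21 and lies on chromosome 4 from 42772860 to 42773993. The untreated libraries held 7372, 6181 and 8346 normalised counts of Ccl21a, and the 1 day libraries held 12734 and 14387. Those at 3 days held 10149, 13176, 9843 and 8668, and those at 14 days 8094, 11499, 7990 and 9770. The 1 and 3 day libraries all lay above the untreated range, and the 14 day libraries overlapped it. The log2 fold change at 1 day was 0.90 ± 0.17 (SE), or 1.87-fold (95% CI 1.47 to 2.38), with an adjusted p of 0.0126 in limma. At 3 days it was 0.51 ± 0.14 with an adjusted p of 0.0888, and at 14 days 0.35 ± 0.14 with an adjusted p of 0.313. The 1 day call was lost without 1 day replicate 1 (adjusted p = 0.0893), without 1 day replicate 2 (0.135) and without untreated replicate 2 (0.0659).

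Ccl19, the other CCR7 ligand, lies beside it on chromosome 4 from 42754525 to 42756528. The untreated libraries held 5730, 5468 and 7056 normalised counts of Ccl19, the 1 day libraries 7624 and 6424, the 3 day libraries 8028, 9670, 8678 and 7862, and the 14 day libraries 7264, 7505, 7032 and 6970. The 3 day libraries all lay above both the untreated and the 14 day libraries. The log2 fold change at 3 days was 0.50 ± 0.090 (SE), or 1.41-fold (95% CI 1.24 to 1.61), with an adjusted p of 0.00918 in limma. The adjusted p was 0.0553 without untreated replicate 1 and 0.0904 without untreated replicate 2. With the level of red cell markers as a covariate, described below, the log2 fold change was 0.32 and was not called (adjusted p = 0.859 in limma). At 14 days against 3 days the log2 fold change was -0.25 ± 0.084, which did not pass the test (adjusted p = 0.649).

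Both CCR7 ligands have near-identical copies in the annotation. The Ccl21a transcript of GENCODE M21 aligned over 402 to 870 of its 870 bases with 4 genes, Ccl21b, Gm10591, Gm13304 and Gm21541, at 99.3% to 99.5% identity. The Ccl19 transcript aligned over 285 to 447 of its 773 bases with 4 loci at 98.9% to 100% identity. The table held 0 rows under the names of these copies, so how their reads were counted is uncertain, and the Ccl21a and Ccl19 values may hold or lack them.

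Ccr7, the receptor for both, did not pass the test at any duration. It lies on chromosome 11 from 99144199 to 99155078 and held 9645 to 11404 normalised counts in untreated libraries. It held 10377 and 12977 after 1 day, and 10601 to 11997 and 10348 to 11681 after 3 and 14 days. All groups overlapped. The log2 fold change at 3 days was 0.072 (95% CI -0.096 to 0.24), and those at 1 and 14 days were 0.12 and 0.032.

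The genes of the B cell zone did not pass the test under the lymph node label. Cxcl13 held 2265, 1833 and 2364 normalised counts in untreated libraries and 2718, 2438, 2749 and 2729 at 3 days, without overlap. The log2 fold change of 0.31 ± 0.10 (SE) had an adjusted p of 0.155 in limma. Cxcr5 held 13791, 14160 and 13201 in untreated libraries and 14626 to 16123 at 3 days, also without overlap, with a log2 fold change of 0.14 ± 0.061 (SE) and an adjusted p of 0.300. At 14 days Cxcr5 ranged from 14431 to 15041, again above the untreated libraries, with a log2 fold change of 0.099 and an adjusted p of 0.564. Ccr6 overlapped between the untreated libraries, at 1333 to 1462, and those at each duration, at 1248 to 1752 over all 10.

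Members whose NAM libraries all lay above all untreated ones numbered 3 of 9 at 1 day, 5 of 9 at 3 days and 2 of 9 at 14 days. Over all tested rows, 17.1%, 8.09% and 5.49% lay above in this way, and 32.6%, 15.3% and 11.5% lay apart in either direction. The median log2 fold change of the 9 members was 0.17, 0.14 and 0.16 at 1, 3 and 14 days, beside -0.00048, 0.00046 and 0.0023 over all tested rows.

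**Figure D2:**
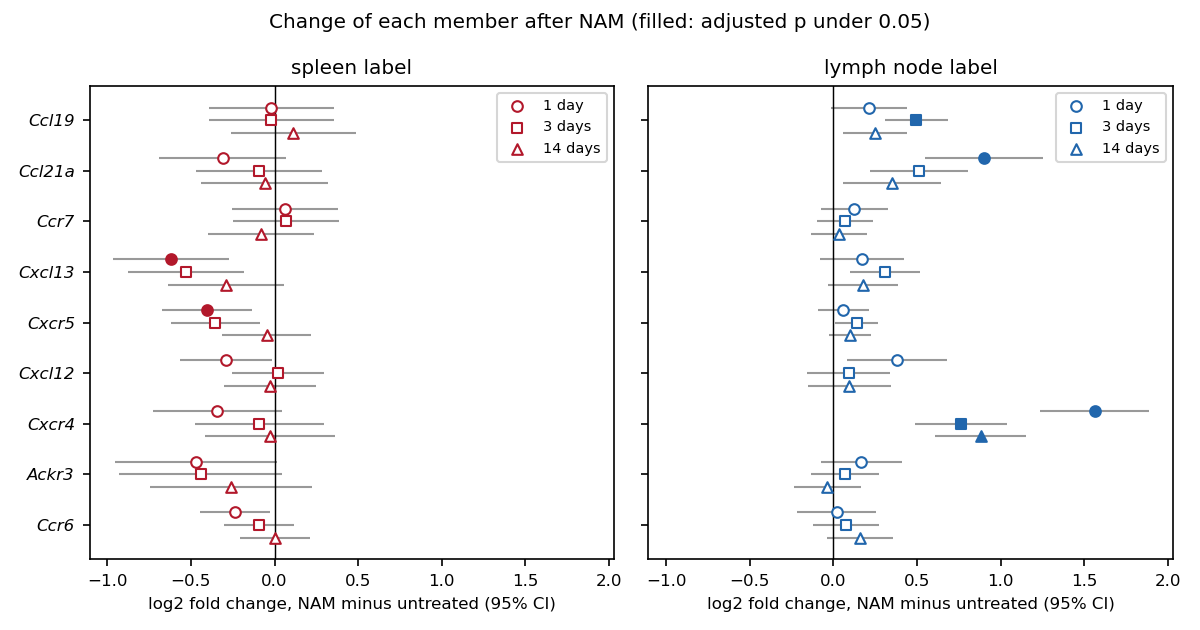
Log2 fold change of 9 members at 1, 3 and 14 days of NAM against untreated, with 95% confidence intervals, under the spleen label (left) and the lymph node label (right). Filled symbols mark an adjusted p under 0.05 in limma: Cxcr4 at each duration, Ccl21a at 1 day and Ccl19 at 3 days on the right, and Cxcl13 and Cxcr5 at 1 day on the left.

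Markers of red cell precursors moved with the NAM groups under the lymph node label. The 9 matched genes of the erythroid list, which holds globins and red cell membrane genes, had a mean log2 level of 14.2 to 14.6 in untreated libraries. That level ran from 13.6 to 14.0 after 1 day, from 10.8 to 13.2 after 3 days and from 12.6 to 13.4 after 14 days. Of these 9 genes, 6 fell at 3 days and 2 fell at 14 days in limma. Klf1, a transcription factor of the red cell lineage, fell by 3.18 on the log2 scale at 3 days. With the erythroid level as a covariate, the log2 fold change of Cxcr4 was 1.57 at 1 day (adjusted p = 0.000286), 0.78 at 3 days (0.678) and 0.89 at 14 days (0.202), and that of Ccl19 at 3 days was 0.32 (0.859). In that fit 0 rows were called at 3 days. The summed level of the list ranged from 1453300 to 3060100 normalised counts in untreated libraries and from 321070 to 1388700 at 3 days. Its part in the Cxcr4 and Ccl19 results was not tested beyond this covariate. Neutrophils also carry Cxcr4, and the summed level of 8 neutrophil markers was 25117 and 35327 normalised counts in the 1 day libraries, above the untreated range of 10971 to 21538. It ran from 14035 to 24667 after 3 days and from 8376 to 16809 after 14 days. Of these 8 genes, limma called Mpo and Elane, granule enzymes of neutrophil precursors, which fell by 1.59 and 1.24 on the log2 scale at 14 days. Of the red pulp macrophage list, Hmox1, a haem-degrading enzyme, fell by 0.79 on the log2 scale at 14 days, and the list's summed level of 48900 to 71106 lay below the untreated 79292 to 91003. The summed level of the dendritic cell list was above its untreated range of 13428 to 14684 at 1 day, at 15419 and 16274, and at 3 days, at 15087 to 15479. Of this list limma called Fscn1, which rose by 0.36 on the log2 scale at 3 days (adjusted p = 0.0458). The part of these cell types in the member results was not tested.

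The 1 day replicate 1 library under the lymph node label also held genes of the exocrine pancreas, with a summed level of 123730 normalised counts over 9 genes, beside 628 to 1270 in the other 12 libraries. Pnlip, a pancreatic lipase, was listed at a median of 0 over the label and reached 21380 in that library. Without it, the log2 fold change of Cxcr4 at 1 day was 1.65 (adjusted p = 0.00499 in limma) and that of Ccl21a was 0.99 (adjusted p = 0.0893). Among the lists of B cells, T cells, follicular dendritic cells and fibroblastic reticular cells, limma called 1 gene over the 3 durations, Serpina1e of the follicular dendritic list at 3 days. The T cell list had a median log2 fold change of 0.20 at 1 day, and its summed level was 43411 and 45836 normalised counts in the 1 day libraries beside 37583 to 40479 in untreated ones.

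Under the spleen label Cxcl13 and Cxcr5, the ligand and receptor of the B cell follicle, fell at 1 day, and the other 7 members tested did not pass the test at any duration. Cxcl13 lies on chromosome 5 from 95956924 to 95961068. The untreated libraries held 1782, 2038, 3426, 1737 and 2601 normalised counts of Cxcl13, and the 1 day libraries 1479, 1305, 1473, 1385 and 1674. Those at 3 days held 1784, 1648, 1278, 1835 and 1294, and those at 14 days 2534, 1566, 1689, 1717 and 1779. All 5 libraries at 1 day lay below all untreated ones, whereas the groups at 3 and 14 days overlapped them.

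Cxcl13 fell by 0.62 ± 0.17 (SE) on the log2 scale at 1 day, to 0.651 of the untreated level (95% CI 0.513 to 0.828), with an adjusted p of 0.0155 in limma. At 3 days the log2 fold change was -0.53 ± 0.17 with an adjusted p of 0.0623, and at 14 days -0.29 ± 0.17 with an adjusted p of 1. Cxcl13 at 3 days passed the test with library weights (adjusted p = 0.00768), with the adipocyte level as a covariate (0.0410) and by DESeq2 on whole reads (0.0169). These were 3 of 12 alternative settings, over which the adjusted p ran up to 0.128. They called 4722, 1854 and 1686 rows in all, beside 1013 in the main fit. Of 10 fits with 1 library left out, 1 called Cxcl13 at 3 days, and the adjusted p ran up to 0.177. Without 3 days replicate 1, which lay with the untreated and 14 day libraries on the second principal component of the spleen label, the adjusted p at 3 days was 0.0309. Untreated replicate 3 held the most Cxcl13, and without it the log2 fold change at 1 day was -0.46 with an adjusted p of 0.0391. Members called numbered 2 of 9 at 1 day, where 16.6% of 18243 tested rows were called and 8.05% were lower. A member lay fully below the untreated range in 1 of 9 cases, beside 5.47% of all rows, and 11.9% of rows lay apart in either direction.

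Cxcr5 lies on chromosome 9 from 44511788 to 44561878, and 110 of its 3332 annotated exonic bases are shared with Bcl9l on the opposite strand. The untreated libraries held 9494, 7019, 9893, 8189 and 7638 normalised counts of Cxcr5, and the 1 day libraries 6050, 4911, 6900, 6516 and 7629. Those at 3 days held 7119, 6151, 5864, 7271 and 6486, and those at 14 days 9824, 6719, 8724, 6633 and 9160. The 1 and 3 day libraries were mostly lower than the untreated ones and overlapped them, and the 14 day libraries, at 6633 to 9824, overlapped most of the untreated range of 7019 to 9893. Cxcr5 fell by 0.40 ± 0.13 (SE) on the log2 scale at 1 day, with an adjusted p of 0.0365 in limma. At 3 days the log2 fold change was -0.35 ± 0.13 with an adjusted p of 0.107, and at 14 days -0.047 with an adjusted p of 1. Cxcr5 at 3 days passed the test with library weights (adjusted p = 0.0228 in limma) and with the adipocyte level as a covariate (0.0463). These were 2 of 12 alternative settings, and they called 4722 and 1854 rows in all, beside 1013 in the main fit. Of 10 fits with 1 library left out, 0 called Cxcr5 at 3 days.

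The 1 day call of Cxcr5 was not kept when untreated replicate 1, 3 or 4 or 1 day replicate 1, 2 or 4 was left out, with adjusted p-values of at least 0.0569. Of these, untreated replicates 1 and 3 lay at one end of the first principal component of the label (30.1% of the variance, at -62.5 and -55.6) and 1 day replicate 2 at the other (74.2). Of 10 B cell markers, 3 fell at 1 day in limma, where 8.05% of all rows did, Pax5 by 0.46, Ebf1 by 0.42 and Cd72 by 0.28 on the log2 scale. The other 7 were not called, and the 10 ran from -0.46 to 0.18 with a median of -0.12. The summed B cell level, which overlapped between the groups, ranged from 62085 to 86428 normalised counts at 1 day and from 76835 to 95850 in untreated libraries. With the B cell level as a covariate, the log2 fold change at 1 day was -0.23 for Cxcr5 (adjusted p = 0.0792) and -0.51 for Cxcl13 (adjusted p = 0.0367). In the follicular dendritic list, 1 of 7 genes fell at 1 day, Fcer2a, a low affinity IgE receptor that B cells also carry, by 0.40 on the log2 scale. Of 12 T cell markers, Bcl11b, a transcription factor of T cells, was called and fell by 0.73 (adjusted p = 0.00620 in limma). Of 7 neutrophil markers tested, with a median log2 fold change of 1.58, Ltf, a granule protein, was called and rose by 2.08 (adjusted p = 0.0399 in limma). The summed neutrophil level was 230.3 to 1167 normalised counts in untreated libraries and 596 to 10920 at 1 day. The adipocyte marker Retn rose by 1.61 (adjusted p = 0.0400 in limma), and the part of these cell types in the Cxcl13 and Cxcr5 results was not tested beyond the B cell and adipocyte covariates.

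Members called numbered 0 of 9 in limma at 3 days, where 5.55% of rows were called, and 0 of 9 at 14 days, where 0% were called. At an unadjusted p under 0.05 the members numbered 2 of 9 at 3 days, where 4007 of 18243 rows (22%) passed it, and 0 at 14 days, where 2.8% did. By edgeR on whole reads 0 members were called at either duration, and by DESeq2 1 was called at 3 days and 0 at 14 days. Over all rows at 14 days, 510 had an unadjusted p under 0.05, edgeR called 0 and DESeq2 called 1. The median log2 fold change of the 9 members was -0.31, -0.093 and -0.047 at 1, 3 and 14 days, beside 0.0054, 0.00066 and 0.0032 over all rows.

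The T zone genes overlapped between all groups of the spleen label. Ccl21a held 45304, 26715, 38121, 27623 and 27324 normalised counts in untreated libraries and 24339, 18601, 29825, 21835 and 40506 at 1 day. Its log2 fold change at 1 day was -0.31 (95% CI -0.69 to 0.071, adjusted p = 0.260 in limma). Ccl19 ranged from 7021 to 13062 and Ccr7 from 9198 to 16185 over the 20 libraries, and neither had a log2 fold change beyond 0.11 in size against untreated. The 95% CI for Ccl19 at 1 day was -0.40 to 0.35, and that for Ccr7 was -0.26 to 0.38.

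The CXCL12 axis also overlapped between groups. Cxcr4 held 4858, 3667, 7053, 6159 and 5195 normalised counts in untreated libraries and 3785, 2747, 4206, 5052 and 5570 at 1 day, with a log2 fold change of -0.34 (95% CI -0.73 to 0.045, adjusted p = 0.220 in limma). Of the 3 day libraries, 4 held 4235 to 4822 and replicate 1 held 7227. Cxcl12 held 7401 to 11452 in untreated libraries and 6675 to 10051 at 1 day, with a log2 fold change of -0.29 and an adjusted p of 0.141. Ackr3 held 326 to 640 in untreated libraries, with 246 to 531 and 248 to 427 after 1 and 3 days, and log2 fold changes of -0.47 and -0.44 and adjusted p-values of 0.178 and 0.279. Ackr3 passed the test at both durations with library weights, where its log2 fold changes were -0.75 and -0.65, and with the B cell level as a covariate, where they were -0.77 and -0.63. Markers of adipocytes varied between the libraries of this label, with a summed level of 32122 to 177970 normalised counts in untreated libraries and 106540 to 455480 at 1 day. With the adipocyte level as a covariate Ackr3 also passed the test at both durations, with log2 fold changes of -0.74 (adjusted p = 0.00550 in limma) and -0.52 (0.0441). At each duration these were 3 of 12 alternative settings, and 0 of 10 fits with 1 library left out called Ackr3. At 3 days library weights and the B cell and adipocyte covariates called 4722, 1823 and 1854 rows, beside 1013 in the main fit.

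Ccr6, on chromosome 17 from 8236043 to 8257127, held 1722 to 2281 normalised counts in untreated libraries and 1366 to 1934 at 1 day. Its log2 fold change was -0.23 ± 0.10 (SE), with an adjusted p of 0.117 in limma. Its ligand Ccl20, on chromosome 1 from 83116765 to 83119166, was low under the spleen label. It held 1.73 to 23.7 normalised counts in untreated libraries, with 4 of them at 6.59 or lower. After 1, 3 and 14 days the ranges were 7.70 to 15.3, 2.00 to 11.5 and 8.93 to 14.9. The group means were 8.07, 10.2, 6.64 and 11.9, and the ranges overlapped.

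Between durations, 0 of 9 members were called. At 14 days against 1 day under the spleen label, where 10.6% of rows were called, Cxcr5 had a log2 fold change of 0.36 ± 0.13 (SE, adjusted p = 0.0805 in limma), Cxcl13 one of 0.33 ± 0.17 (0.224) and Ackr3 one of 0.21 ± 0.23 (0.624). At an unadjusted p under 0.05 the members numbered 2 of 9, beside 25.7% of all rows, edgeR called 0 and DESeq2 called 1, Cxcr5. At 3 days against 1 day, where 0.00548% of rows were called, the log2 fold changes of Cxcl13 and Cxcr5 were 0.087 and 0.050, 1 member had an unadjusted p under 0.05, beside 6.98% of all rows, and edgeR and DESeq2 called 0. At 14 days against 3 days under the lymph node label, where 0.0110% of rows were called, 1 member, Ccl19, had an unadjusted p under 0.05, beside 5.84% of all rows, and edgeR and DESeq2 called 0. These comparisons share libraries with those against untreated.

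To relate each receptor to the lymphocytes that carry it, the log2 level of Ccr7 was set against the mean log2 level of 12 T cell markers, and that of Cxcr5 against 10 B cell markers, in each library. Under the spleen label Ccr7 relative to T cell markers was 1.48 ± 0.072 (SD, n = 5) in untreated libraries and 1.68 ± 0.065 (SD, n = 5) at 1 day, and the groups did not overlap. The difference of 0.20 had an exact permutation p of 0.00794, the smallest that 5 against 5 allows, and an adjusted p of 0.0952 over 12 tests. Its parts were a difference of 0.060 in the log2 level of Ccr7 and a mean log2 level of the T cell markers of 11.98 at 1 day against 12.12 in untreated libraries. At 3 days Ccr7 relative to T cell markers was 1.65 ± 0.18 (SD, n = 5). The difference of 0.16 had an exact permutation p of 0.103 and an adjusted p of 0.229. Replicate 1 held 1.33 at 3 days, and replicates 2 to 5 held 1.70 to 1.75, above the untreated 1.39 to 1.58. Cxcr5 relative to B cell markers was 0.50 ± 0.15 (SD, n = 5) in untreated libraries, 0.24 ± 0.14 at 1 day and 0.23 ± 0.15 at 3 days. The differences of -0.26 and -0.27 had exact permutation p-values of 0.0238 and 0.0317, both with an adjusted p of 0.127.

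Under the lymph node label Cxcr5 relative to B cell markers was 0.38 ± 0.032 (SD, n = 3) without NAM. After 1 day it was 0.53 ± 0.074 (SD, n = 2), after 3 days 0.51 ± 0.061 (SD, n = 4) and after 14 days 0.49 ± 0.085 (SD, n = 4). The 3 day difference of 0.14 had an exact permutation p of 0.0571. With p taken as 2 times the smaller tail, as here, this is the smallest that 3 against 4 allows, and 3 against 2 cannot go below 0.200. Counting absolute differences instead gives 0.0286 and 0.1 for Cxcr5 at 3 days and 1 day, with adjusted p-values of 0.0952 and 0.206. Ccr7 relative to T cell markers differed from untreated by -0.0047, 0.025 and -0.022 at 1, 3 and 14 days under this label. None of the 12 tests passed after adjustment. All were two-sided.

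**Figure D3:**
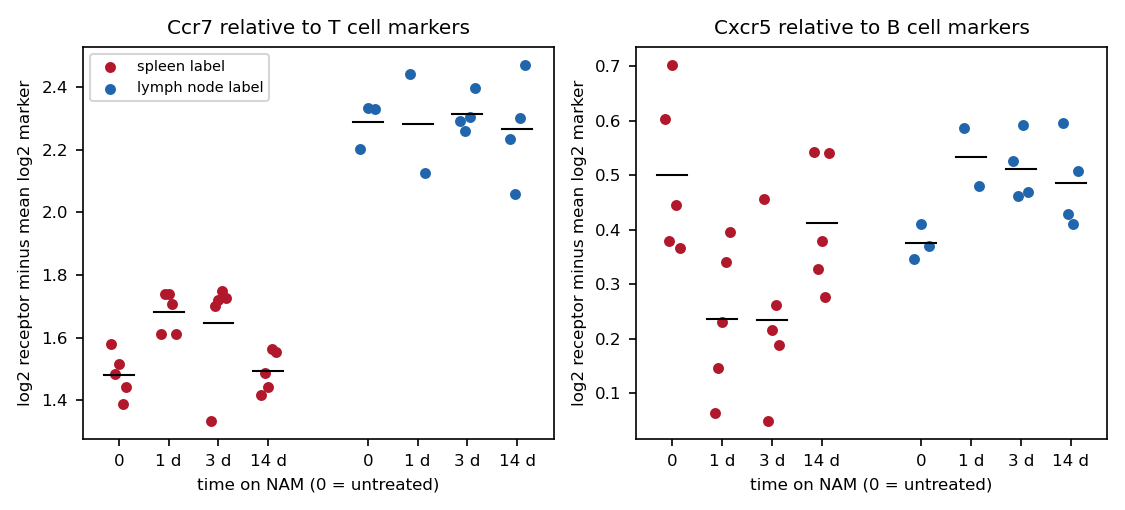
Log2 level of Ccr7 minus the mean log2 level of T cell markers (left) and of Cxcr5 minus that of B cell markers (right) in each library against time on NAM, with bars at the group means. Under the spleen label the Ccr7 value averages 1.48 in untreated and 1.68 in 1 day libraries, and the Cxcr5 value averages 0.50 and 0.24.

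The change against untreated was compared between the labels for 9 members at 3 durations by exact permutation of treated and untreated libraries within each label, two-sided, with adjustment over 27 tests. The test takes the libraries of both labels as independent, which the labels do not state. At 3 days the log2 fold change of Cxcr5 was -0.35 in spleen-labelled libraries and 0.14 in the others, a difference of -0.49 (permutation p = 0.00068, adjusted p = 0.0184). The changes of Cxcl13 were -0.53 and 0.31, a difference of -0.84 (permutation p = 0.00181, adjusted p = 0.0245). The summed level of 10 fibroblastic reticular markers in spleen-labelled libraries was 36263 to 41651 normalised counts after 3 days, below the untreated 42117 to 101050, whereas their mean log2 level overlapped, at 10.5 to 10.9 against 10.6 to 11.9. The list had a median log2 fold change of -0.38, and its part in the Cxcl13 result was not tested. The difference for Cxcr4 was -1.90 at 1 day (permutation p = 0.0206, adjusted p = 0.0888), and that for Ccl21a was -1.21 (permutation p = 0.0230, adjusted p = 0.0888). Those for Cxcl13, Cxcl12 and Cxcr5 at 1 day were -0.79, -0.67 and -0.46 (permutation p = 0.0143, 0.0159 and 0.0167). Each had the same adjusted p of 0.0888. The other tests did not pass after adjustment.

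Genes that act with these chemokines were described through 4 lists of 59 genes, of which 56 were tested. They cover other chemokines, sterol and sphingolipid guidance, lymphotoxin and NF-kB signals that build lymphoid stroma, and signalling below chemokine receptors. Under the lymph node label 5 of 56 rose and 0 fell at 1 day, where 1.21% of all rows were called and 0.884% rose. At 3 days 1 rose and 1 fell, where 1.24% were called, and at 14 days 0 were called, where 0.791% were. The median log2 fold change of the 56 was 0.023, 0.033 and -0.013. At 14 days 7 of the 56 had an unadjusted p under 0.05 in limma, beside 11.8% of all rows, edgeR called 0 and DESeq2 called 2.

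At 1 day under the lymph node label Rgs1, which shortens G protein signals of chemokine receptors, rose by 1.09 ± 0.18 (SE) on the log2 scale. Il7r, the receptor through which IL-7 maintains T cells, rose by 0.93 ± 0.15, and Tnfsf14, the ligand LIGHT, rose by 0.43 ± 0.094. Ch25h, which makes the precursor of the oxysterols that guide B cells, rose by 1.06 ± 0.21 at 1 day and by 0.89 ± 0.18 at 3 days. Cxcl16, a transmembrane chemokine, rose by 0.41 ± 0.098. The adjusted p-values at 1 day in limma were 0.00582, 0.00503, 0.0337, 0.0195 and 0.0498 in the order named, and these libraries included the one with pancreatic genes. At 3 days Arrb1, an arrestin that turns receptors off, was lower by 0.60 on the log2 scale, with means of 413 normalised counts and 623 in untreated libraries.

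Under the spleen label 5 of the 56 pathway genes rose and 4 fell at 1 day, where 16.6% of all rows were called, and 1 rose and 3 fell at 3 days, where 5.55% were. These shares are near those over all rows, and the genes below are described singly. Klf2, a transcription factor that keeps up the egress receptor S1pr1 in lymphocytes, averaged 4239 normalised counts at 1 day, 4776 at 3 days and 7966 in untreated libraries, and all libraries at both durations lay below the untreated ones. Its log2 fold changes were -0.95 ± 0.18 (SE, adjusted p = 0.0018 in limma) and -0.75 ± 0.18 (0.0224). Vcam1, an adhesion molecule of stroma and macrophages, rose by 0.64 ± 0.11 at 1 day and by 0.37 ± 0.11 at 3 days. Madcam1, an adhesion molecule of endothelium and marginal stroma, fell by 0.69 ± 0.19 at 1 day and by 0.89 ± 0.19 at 3 days. At 14 days against 1 day Klf2 was higher by 0.89 and Vcam1 had a log2 fold change of -0.73.

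**Figure D4:**
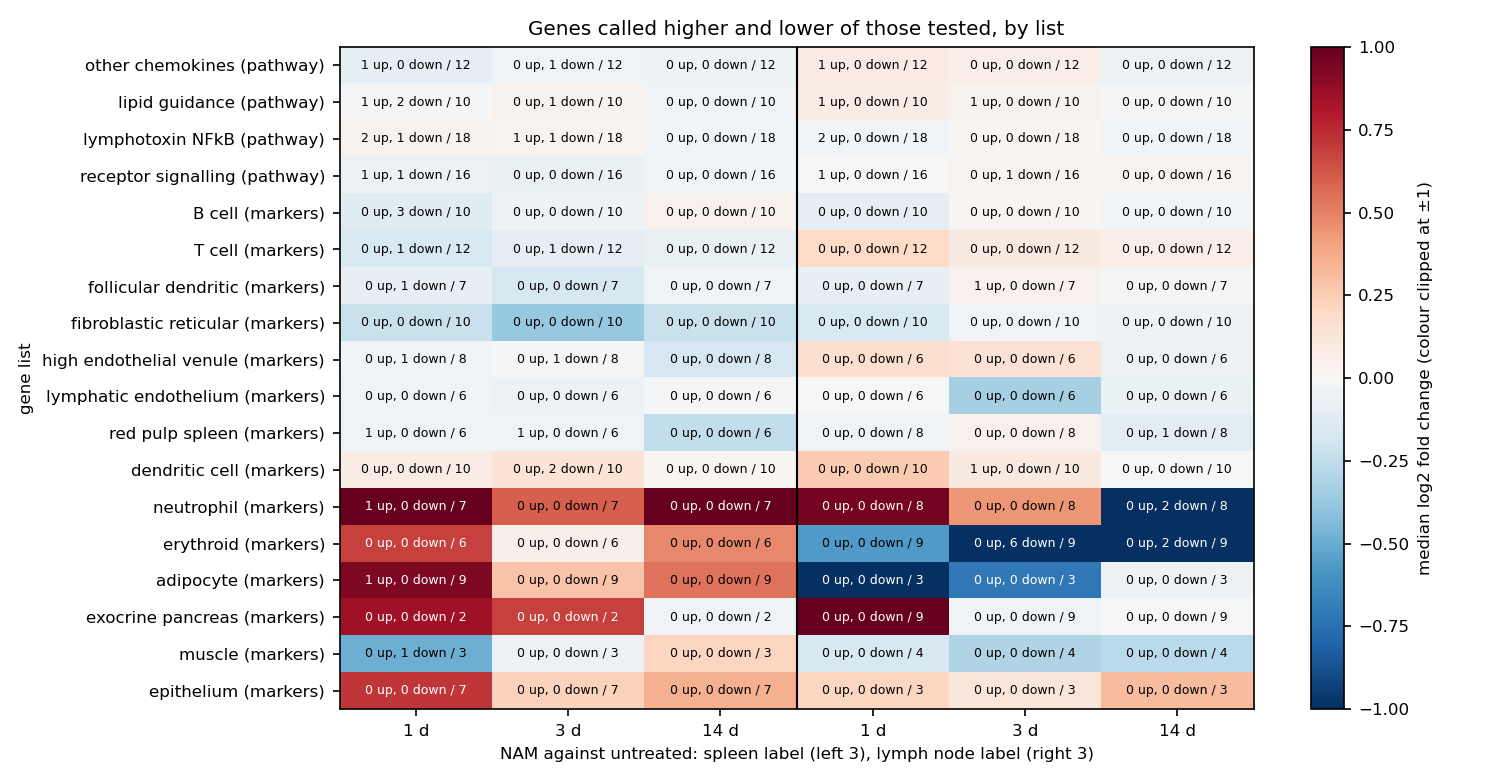
Each cell gives, for a gene list and a comparison of NAM with untreated, how many genes were called higher and lower in limma of those tested, with colour for the median log2 fold change. The erythroid list under the lymph node label, with 6 of 9 genes lower at 3 days, has the most calls, and the pathway lists have at most 2 in either direction.

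The genes with the pattern most like that of a member were found by the Pearson correlation of log2 values over the libraries of 1 label, which share groups and depth. Over the 13 libraries labelled lymph node, those most like Cxcr4 were Tsc22d3 (r = 0.97), Gm16316 (0.94) and Zfp1 (0.93), and Cxcr4 was added to the genes described in this way after its values were seen. Over the 20 libraries labelled spleen, Cxcr4 was most like Ddit4 (0.89), Tsc22d3 (0.86) and Zfp36l2 (0.83). Those most like Cxcl13 under the spleen label were Draxin (0.90), Tmem164 (0.89) and Timd4 (0.85), and under the lymph node label Heph (0.91), Enpp2 (0.90) and Gtdc1 (0.89). Cxcr5 was most like Fcmr (0.97), Cd180 (0.96) and Dtx1 (0.96) under the spleen label, and H2-DMb2 led under the lymph node label (0.93). Ccr7 was most like a T cell receptor row with Trbv1 and Trbv13-2 (0.98) and Relb (0.95) under the spleen label, and Ilvbl (0.86) under the lymph node label. Ccl21a was most like A930005H10Rik (0.95), Arhgdib (0.93) and Thy1 (0.93) under the spleen label, and Nt5e (0.92), Ctla4 (0.92) and Il1r2 (0.91) under the lymph node label. Between members under the spleen label, Ccr6 ranked 488 among the genes most like Cxcr5 (0.81), and Ccl19 ranked 292 for Ccl21a (0.78). Cxcl12 ranked 369 for Ccl21a (0.77), and Ccl19 ranked 651 for Ccr7 (0.77). Under the lymph node label Cxcr4 ranked 77 for Ccl21a (0.78). Genes outside the members thus lay closer in each case.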

How the data were processed

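The authors deposited normalised counts, a linear signal obtained when a library's reads per gene are divided by its DESeq2 size factor. The header names mm10, and the submitters' processing notes name STAR 2.4.0. Strand use in counting is not given in the sources used here. The table's other per-library columns numbered 0. Whole reads recovered from each library's step were within 0.02 of a whole number for 100% of values in each library.

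Values were tested as log2(value + 1) in limma 3.58.1 (R 4.3.3) with an intensity trend, all 4 groups of a label in 1 fit, rows with a mean of at least 10, and Benjamini-Hochberg adjustment at 0.05. A fold change is on the log2(value + 1) scale, which understates changes of low genes. Lists are described by counts and medians. Genes named from a list are up to 3 called with the smallest p, likeness uses the highest correlations over a label, and every member is named. Members and lists were chosen with earlier results of these data known. Replicate libraries compared in 56 pairs were identical in 0. The test was checked on simulated independent libraries without contamination or shifts in cell composition, so that check does not cover these features of the data. Transcripts were aligned with BLAST 2.17.0. Ratios and differences between labels used exact permutation, the two-sided p being 2 times the smaller tail (Python 3.11.15, numpy 2.4.6). Alternatives included edgeR 4.0.16 and DESeq2 1.42.0. Depth limits rows with few reads, such as Ccl20.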

Additional observations from a re-analysis of the deposited data

Results flagged for a closer look

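In 58 sets of 4 or 5 libraries of a member, 4 held a library far from the others, and chance gives about 1 in 20 sets. Under the lymph node label, Cxcl13 in 3 days replicate 2 was 2438 normalised counts beside 2718 to 2749 in the other libraries. Under the spleen label, Cxcl13 in 14 days replicate 1 was 2534 beside 1566 to 1779, Cxcr4 in 3 days replicate 1 was 7227 beside 4235 to 4822, and Ccl20 in untreated replicate 3 was 23.7 beside 1.73 to 6.59. The change at 3 days differed between the labels for Cxcl13, by -0.84 on the log2 scale, and for Cxcr5, by -0.49, in the exact permutation test of the difference. That test takes the libraries of the 2 labels as independent, which the labels do not state.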

How the results depend on the processing

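Of 1300 log2 fold changes of members under an alternative, 1179 kept their direction and their side of the threshold, 22 were no longer called, 21 became called and 78 took the other sign, of which 0 were called. Cxcr4 at 1 day under the lymph node label and Cxcl13 at 1 day under the spleen label stayed called under every alternative run. The erythroid, adipocyte and B cell covariates were composition scores computed from the same libraries, and the erythroid and B cell ones were chosen after seeing the data. With the erythroid covariate Cxcr4 at 3 and 14 days and Ccl19 at 3 days were no longer called, and the cause was not tested. The call of Cxcr5 at 1 day under the spleen label was lost with the fold rule, no filter, the 2 groups alone, library weights and the adipocyte and B cell covariates. Cxcl12 at 1 day under the spleen label was called without untreated replicate 4 (adjusted p = 0.0464 in limma), Ccl21a at 3 days under the lymph node label without 3 days replicate 4 (0.0445), and Cxcr5 at 14 days against 1 day without 14 days replicate 4 (0.0476) or 1 day replicate 5 (0.0474). Where 1 library stood alone at 1 day, it was assumed to vary like the other groups. Deviations of same-numbered libraries correlated at -0.107 to 0.0789 under the lymph node label and -0.496 to 0.468 under the spleen label. Those of differently numbered libraries correlated at -0.1 to 0.113 and -0.559 to 0.548. These ranges did not set same-numbered libraries apart, and the main fit used no pairing. The check ran within a label, so it cannot tell whether an animal gave both organs. With the replicate block 1 member was called at 14 days against 1 day under the spleen label, and no other count of members changed. Depth limits Ccl20, which was not tested.

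Under the lymph node label the rows called numbered 221 at 1 day, beside 139 with no filter and equal totals, 132 with the replicate block, 143 with the erythroid covariate, 540 with DESeq2, and 66 to 125 with 1 library left out. There were 226 at 3 days, beside 557 with library weights, 131 with the adipocyte covariate, 0 with the erythroid covariate, 493 with DESeq2, and 85 to 302 with 1 library left out. There were 144 at 14 days, beside 55 with the 2 groups alone, 278 with library weights, 3 with the erythroid covariate, 381 with DESeq2, and 31 to 159 with 1 library left out. There were 2 at 14 days against 3 days, beside 1 with no filter and edgeR, 4 with the 2 groups alone and the replicate block, 5 with the adipocyte covariate, 0 with the erythroid covariate, 55 with DESeq2, and 0 to 9 with 1 library left out. Under the spleen label the rows called numbered 1013 at 3 days, beside 572 with no filter, 140 with the 2 groups alone, 4722 with library weights, 1854 with the adipocyte covariate, 1823 with the B cell covariate, 1686 with DESeq2, and 158 to 2782 with 1 library left out. There were 0 at 14 days, beside 1 with no filter, the adipocyte covariate, the B cell covariate and DESeq2. There were 1 at 3 days against 1 day, beside 0 with a pseudocount of 0.1, the 2 groups alone and edgeR, 2 with no filter and the B cell covariate, 26 with library weights, 36 with DESeq2, and 0 to 2 with 1 library left out. There were 1940 at 14 days against 1 day, beside 1214 to 1816 with 1 library left out. With an unadjusted p of at most 0.05 and a fold of at least 1.5 (the fold rule), they numbered 894 at 1 day, 615 at 3 days, 630 at 14 days and 278 at 14 days against 3 days under the lymph node label. By the same rule they numbered 1497 at 1 day, 620 at 3 days, 204 at 14 days, 332 at 3 days against 1 day and 943 at 14 days against 1 day under the spleen label.

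Members called under the spleen label numbered 2 at 1 day, where the main fit called 3030 of 18243 rows. They numbered 1 with the fold rule (1497 rows), no filter and the 2 groups alone, and 1 to 2 with 1 library left out. They numbered 0 at 3 days, where the main fit called 1013 of 18243 rows. They numbered 3 with library weights (4722 rows called) and the adipocyte covariate (1854). They numbered 1 with the B cell covariate (1823) and DESeq2 (1686), and 0 to 1 with 1 library left out (158 to 2782). They numbered 0 at 14 days against 1 day, beside 1 with quantile normalisation, the replicate block and DESeq2, 2 with the B cell covariate, and 0 to 1 with 1 library left out. Members called under the lymph node label numbered 2 at 1 day, beside 1 to 2 with 1 library left out. They numbered 2 at 3 days, where the main fit called 226 of 18215 rows. They numbered 1 with the fold rule (615 rows), 0 with the erythroid covariate (0 rows), and 0 to 3 with 1 library left out (85 to 302). They numbered 1 at 14 days, beside 0 with the erythroid covariate.

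Log2 fold changes against untreated that took the other sign, unless another reference is named, were as follows, and all were uncalled. Equal totals gave -0.0075 for Cxcr5 and -0.045 for Ccr6 at 1 day under the lymph node label. Quantile normalisation gave -0.055 for Cxcr5 and -0.0090 for Ccr6 at 1 day under the lymph node label. The replicate block gave -0.034 for Ccr6 at 1 day under the lymph node label. The erythroid covariate gave 0.058 for Ackr3 at 14 days under the lymph node label. Leaving out 1 library at a time under the lymph node label gave -0.037 to 0.29 for Ccr7, -0.046 to 0.39 for Cxcl13, -0.044 to 0.16 for Cxcr5 and -0.023 to 0.044 for Ccr6 at 1 day. It gave -0.0098 to 0.17 for Cxcl12 at 3 days. It gave -0.039 to 0.082 for Ccr7, -0.013 to 0.17 for Cxcl12 and -0.093 to 0.065 for Ackr3 at 14 days. Library weights gave 0.16 for Ccl19 at 1 day, 0.17 for Ccl19 and 0.032 for Ccl21a at 3 days, 0.075 for Ccl21a, 0.0060 for Ccr7, 0.038 for Cxcr5, 0.062 for Cxcl12 and 0.058 for Cxcr4 at 14 days, and -0.052 for Cxcr5 at 3 days against 1 day under the spleen label. The adipocyte covariate gave 0.20 for Ccl19 at 1 day, 0.044 for Ccl19 at 3 days, 0.057 for Ccl21a, 0.016 for Ccr7, 0.020 for Cxcr5 and 0.033 for Cxcl12 at 14 days, and -0.043 for Cxcr5 at 3 days against 1 day under the spleen label. The B cell covariate gave 0.15 for Ccl19 at 1 day, 0.087 for Ccl19 and 0.036 for Ccl21a at 3 days, -0.036 for Ccr6 at 14 days, and -0.013 for Cxcr5 at 3 days against 1 day under the spleen label. Equal totals gave -0.032 for Ccr6 at 14 days under the spleen label. Quantile normalisation gave -0.0062 for Ccr6 at 14 days under the spleen label. The edgeR fit gave -0.00091 for Ccr6 at 14 days under the spleen label. Leaving out 1 library at a time under the spleen label gave -0.13 to 0.090 for Ccl19 and -0.017 to 0.18 for Ccr7 at 1 day. It gave -0.11 to 0.092 for Ccl19, -0.16 to 0.030 for Ccl21a, -0.0079 to 0.19 for Ccr7, -0.079 to 0.11 for Cxcl12 and -0.23 to 0.016 for Cxcr4 at 3 days. It gave -0.13 to 0.064 for Ccl21a, -0.16 to 0.012 for Ccr7, -0.12 to 0.025 for Cxcr5, -0.13 to 0.030 for Cxcl12, -0.16 to 0.078 for Cxcr4 and -0.075 to 0.049 for Ccr6 at 14 days. It gave -0.042 to 0.12 for Cxcr5 at 3 days against 1 day.

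With 1 library left out, Ccr7 relative to T cell markers took either sign, with differences from untreated of -0.16 to 0.15 at 1 day (lymph node label), -0.019 to 0.048 at 3 days (lymph node label), -0.090 to 0.048 at 14 days (lymph node label) and -0.013 to 0.035 at 14 days (spleen label). Pseudocount and scaling changed no sign and no call of the 12 receptor comparisons. The differences between the labels at 3 days kept an adjusted p of 0.0122 to 0.0429 for Cxcr5 and of 0.0184 to 0.0490 for Cxcl13 over 19 alternatives of pseudocount, scaling and libraries left out, chosen after seeing the data. Those at 1 day stayed above the threshold for Cxcr4 and Ccl21a, each at 0.0536 to 0.152 over 17. Counting absolute differences in place of 2 times the smaller tail, also chosen after seeing the data, gave an adjusted p of 0.0184 for both genes at 3 days, 0.0643 for both at 1 day, and 0.0952 for Cxcr5 relative to B cell markers at 1 and 3 days in spleen-labelled libraries and after 3 days in the others. It changed no call.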
